A study of Mus musculus with 3 samples.

Results

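The genes described here encode the chemokine system of mouse myeloma cells, the bortezomib-resistant line 5TGM1.BRE that can engraft in mice: the chemokines, their receptors and the receptors of sphingosine 1-phosphate. They were taken by symbol from the 24467 genes of the count tables: the CC, CXC, CX3C and XC receptors and ligands by their numbered names, the atypical receptors Ackr1 to Ackr4, and S1pr1 to S1pr5. The rule gave 66 genes, of which 65 are reported here: 38 encode ligands, 18 signalling chemokine receptors, 4 atypical receptors and 5 sphingosine 1-phosphate receptors. It left out Ccrl2 and 2 platelet chemokines with other names, Pf4 and Ppbp. The 3 libraries of polyadenylated RNA form 1 group. The 5TGM1 line goes back to a myeloma that arose by itself in a C57BL/KaLwRij mouse, and the cells studied were made resistant to bortezomib, a proteasome inhibitor, and recovered from the marrow of such mice. They grew in medium with 20% serum and 10 nM bortezomib, and drug was withdrawn for at least 72 h before RNA was taken from 10000000 cells per sample. The cell type label of replicate 1 does not mention culture in bortezomib, whereas those of replicates 2 and 3 do. The cells are 1 resistant line grown outside the animal, no sensitive or untreated cells were analysed here, and whether the replicates came from separate cultures is not labelled. The spread between replicates may thus be technical, and no change on resistance or engraftment was measured.

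Chemokines are small secreted proteins that attract cells carrying the matching G protein-coupled receptor. In the marrow, stromal cells make CXCL12, which binds CXCR4 and holds blood-forming cells, plasma cells and myeloma cells in their niche. Sphingosine 1-phosphate, a lipid abundant in blood, works as a counterpart: S1PR1 draws lymphocytes out of tissues, while S1PR2 restrains their movement. Atypical receptors bind chemokines without G protein signalling and remove them.

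The libraries held 62303493, 45705994 and 59402218 counts for replicates 1, 2 and 3. Levels are given in CPM, counts per 1000000 counts of the library, or, to compare genes, in TPM, counts per kilobase of exon scaled to the same sum. For a gene with 0 counts the upper limit used is 3 counts, below the upper end of the exact 95% Poisson interval. It is 0.0482, 0.0656 and 0.0505 CPM in replicates 1, 2 and 3 and 0.0179 CPM over all libraries. These limits, and all Wilson and Poisson intervals given, cover counting error only, and reads copied by PCR are not independent molecules. Replicate 3 stood apart: the chi-square per degree of freedom over genes was 65.1 and 44.4 against replicates 1 and 2, and 4.0 between those. Of 10 plasma cell markers, 8 were at 1 CPM or more in all libraries, while Cd38 had 0 counts and Tnfrsf17 stayed below that limit. None of 8 T and NK cell, 7 neutrophil or 4 mast cell and basophil markers reached it, with summed levels of 0.175 to 0.369, 0.193 to 0.263 and 0.241 to 0.286 CPM. Of 8 monocyte and macrophage markers, 3 did (Cd68, Ly6c2 and Mrc1, for a list sum of 582 to 619 CPM), of 9 B cell markers 3 (92.3 to 106 CPM), of 5 dendritic cell markers 2 (5.61 to 6.66 CPM), of 6 erythroid and megakaryocyte markers 1 (15.2 to 17.6 CPM) and of 9 stromal and endothelial markers 1 (6.2 to 6.82 CPM). The markers with 0 counts in every library were, beside Cd38, Cr2 and Bcl6 of B cells, Cd3e, Nkg7 and Ncr1 of T and NK cells, S100a8, S100a9 and Camp of neutrophils, Clec9a, Pf4, Col1a2, and Cpa3, Mcpt8 and Kit of mast cells and basophils. No monocyte and macrophage marker was at 0 in every library. Cd79b of the B cell list was at 92.0 CPM, Itga2b of the erythroid and megakaryocyte list at 16.2 CPM and Pecam1 of the stromal and endothelial list at 5.32 CPM (means of 3 libraries). The part of other cells in the levels below was not tested.

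Few of the 65 genes reached 1 CPM in every library, and Cxcr4 accounted for most of the counts. In all, 8 genes were at 1 CPM or more in every library, or 12.3%, against 40.9% of all genes in the tables. Another 2, Ccr10 and S1pr4, had at least 10 counts in every library, which made 10 genes or 15.4%, against 46.0% of all genes. A further 27 had at most 9 counts in any library, and 28 had 0 counts in every library, or 43.1%, against 33.5% of all genes. The median level was 0.00535 CPM, against 0.0764 CPM over all genes. Together the 65 genes made up 108.8, 107.0 and 117.6 CPM in replicates 1, 2 and 3, of which Cxcr4 took 73.4, 72.8 and 70.4%.

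**Figure D1:**
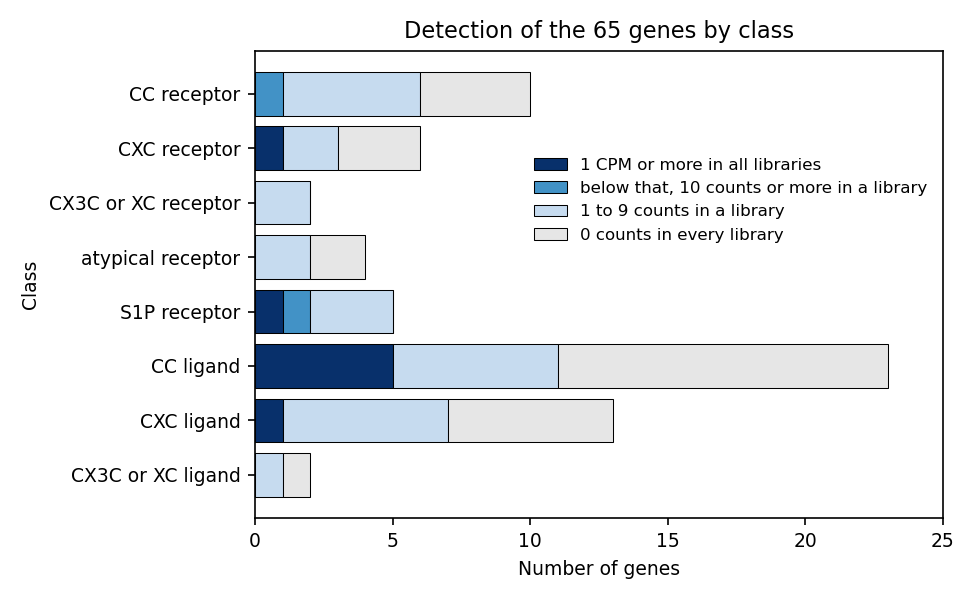
Number of genes of each class by how they were detected, with the darkest part of a bar at 1 CPM or more in all 3 libraries and the lightest at 0 counts in every library. The CC ligands hold 5 of the 8 genes at 1 CPM or more, and the CXC receptors, CXC ligands and sphingosine 1-phosphate receptors 1 each.

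Promoter sequences show what lies upstream of the leading receptor and of neighbouring ligand genes that differed in level. The windows run from 250 bases before to 50 bases after the RefSeq transcription start (GRCm38.p6), and the table of them held 50 of the 65 genes. The letters of 3 motifs were searched on both strands and are in capitals: TATAAA, the TATA box; GAAANNGAAA, the core of the interferon response element; and the kappa B consensus, the site of NF-kB factors. Cxcr4 is shown as the receptor with the highest level, Cxcl10 as the 1 CXC ligand above 1 CPM, and Cxcl9 as its neighbour with 0 counts.
Cxcr4, chr1:128592250-128592549, minus strand: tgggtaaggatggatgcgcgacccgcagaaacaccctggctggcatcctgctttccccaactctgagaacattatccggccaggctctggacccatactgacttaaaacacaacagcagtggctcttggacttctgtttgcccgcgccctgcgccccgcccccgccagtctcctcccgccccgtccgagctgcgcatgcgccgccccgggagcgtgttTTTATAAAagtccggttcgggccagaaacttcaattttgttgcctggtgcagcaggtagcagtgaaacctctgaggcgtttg
Cxcl10, chr5:92348840-92349139, minus strand: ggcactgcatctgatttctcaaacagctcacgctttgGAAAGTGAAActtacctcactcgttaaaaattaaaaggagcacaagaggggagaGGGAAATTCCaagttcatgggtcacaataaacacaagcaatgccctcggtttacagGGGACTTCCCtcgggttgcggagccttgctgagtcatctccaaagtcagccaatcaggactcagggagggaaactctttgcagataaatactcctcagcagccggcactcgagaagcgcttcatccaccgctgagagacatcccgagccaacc
Cxcl9, chr5:92328030-92328329, minus strand: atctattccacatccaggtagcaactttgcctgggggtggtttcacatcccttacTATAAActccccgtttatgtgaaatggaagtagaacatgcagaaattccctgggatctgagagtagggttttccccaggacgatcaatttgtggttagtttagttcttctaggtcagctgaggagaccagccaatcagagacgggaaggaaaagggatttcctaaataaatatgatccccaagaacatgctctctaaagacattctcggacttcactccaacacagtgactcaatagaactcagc
The Cxcr4 window had TATAAA 30 bases before the start, overlapping a match on the other strand that began 32 bases before it. The Cxcl10 window had the interferon response element core 213 bases and kappa B matches 159 and 103 bases before the start, and the Cxcl9 window had TATAAA 195 bases before it. Of all 32851 windows of this length, 13.6% held TATAAA, 3.44% the interferon response element core and 4.51% a kappa B match. Counted by gene, with a match in at least 1 window, the shares were 15.7, 3.99 and 5.14% of 27025 genes. Of the genes with at least 10 counts in every library, 7 had a window, and 2, 1 and 2 of them held these letters in at least 1 window. Of the 43 other genes with a window, the numbers were 13, 2 and 8. The 8 with a kappa B match included Cxcl1, Cxcl2, Cxcl3 and Ccl9, none above 5 counts in a library. The window of Ccl3, a gene above 1 CPM, held none of the 3 motifs. A match describes the letters only, and binding was not measured.

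CXC receptors came down to Cxcr4. Its protein is the receptor for CXCL12, and the gene (ENSMUSG00000045382.6) is found on the minus strand of chromosome 1 (128588199 to 128592293) (GRCm38, GENCODE M21). Cxcr4 was at 79.9, 77.9 and 82.9 CPM in replicates 1, 2 and 3. The values lay close together, with replicate 3 the highest in CPM and the lowest in TPM (142.6, 137.5 and 136.7 TPM), at a mean of 80.2 ± 2.51 CPM (SD, n = 3) or 139 ± 3.20 TPM, above 91.5% of genes with a count. Of the counts of the 22 chemokine receptors reported, the atypical receptors included, Cxcr4 took 98.7% (95% Wilson interval 98.3 to 99.0), 98.7% (98.2 to 99.0) and 98.4% (98.0 to 98.7) in the 3 libraries, and 98.7% ± 0.196 of their TPM (SD, n = 3). Cxcr5, which guides B cells to follicles, had 3, 3 and 3 counts, and Cxcr2, a neutrophil receptor, 0, 2 and 2. Cxcr1, Cxcr3 and Cxcr6 had 0 counts in every library. Plasma cells are known to use CXCR3 as well as CXCR4 to reach inflamed tissue and marrow.

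Of the 10 CC receptors reported, none reached 1 CPM in all libraries, and Ccr10 had the most counts. Ccr10 guides antibody-secreting cells to mucosa and skin and is found on the minus strand of chromosome 11 (101172997 to 101175443). It had 48, 35 and 67 counts, or 0.770, 0.766 and 1.13 CPM, so that replicate 3 alone was above 1 CPM, and 0.888 ± 0.208 CPM on average (SD, n = 3). Per kilobase, Cxcr4 exceeded Ccr10 by 6.45 ± 0.28 on the log2 scale (SD, n = 3), in 3 of 3 libraries. Ccr7, the lymph node homing receptor, had 2, 2 and 2 counts. Ccr9, the gut homing receptor, had 1, 0 and 0, Ccr4 2, 1 and 0, Ccr8 0, 1 and 0, and Ccr1, on myeloid cells, 0, 0 and 1. Ccr2, Ccr3, Ccr6 and Ccr1l1 had 0 counts in every library.

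Other receptors of chemokines were near the detection limit. Ackr3, an atypical receptor that takes up CXCL12, had 9, 3 and 4 counts, or 0.144, 0.0656 and 0.0673 CPM, with replicate 1 the highest. Its level over all libraries was 0.0956 CPM, with an exact 95% Poisson interval of 0.0546 to 0.155 that covers counting error only. Ackr4 had 1, 0 and 0 counts, its exons overlap 479 bases of Acad11 on the other strand, and Ackr1 and Ackr2 had 0 counts. Cx3cr1, a receptor of monocytes, had 0, 1 and 2 counts and Xcr1, of cross-presenting dendritic cells, 1, 0 and 0. No class of chemokine receptor but the CXC class had a gene at 1 CPM or more in all libraries.

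Of the sphingosine 1-phosphate receptors, S1pr2 was the highest, while S1pr1 was at the limit of detection. S1pr2 couples to G12 and G13 proteins and restrains migration, and is found on the minus strand of chromosome 9 (20962361 to 20976781). It was at 3.95, 3.87 and 3.20 CPM in replicates 1, 2 and 3, with replicate 3 the lowest, and at 3.67 ± 0.413 CPM on average (SD, n = 3). S1pr4, found mainly on blood cells, had 15, 16 and 20 counts, or 0.241, 0.350 and 0.337 CPM. S1pr1, the egress receptor, had 2, 0 and 0 counts, S1pr3 0, 0 and 2 and S1pr5 0, 1 and 0. S1pr2 took 93.5% (95% Wilson interval 89.9 to 95.9), 91.2% (86.4 to 94.5) and 89.6% (84.8 to 93.0) of the counts of the class. Its share of the TPM of the class was lower, at 81.6, 75.8 and 73.0%, or 76.8% ± 4.42 on average (SD, n = 3). Per kilobase S1pr2 exceeded S1pr4 3.59-fold, by 1.84 ± 0.41 on the log2 scale (SD, n = 3), and was 12-fold higher without lengths. Cxcr4 exceeded S1pr2 by 6.59 ± 0.21 on the log2 scale per kilobase (SD, n = 3), a 96.6-fold difference that was 21.9-fold without lengths.

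**Figure D2:**
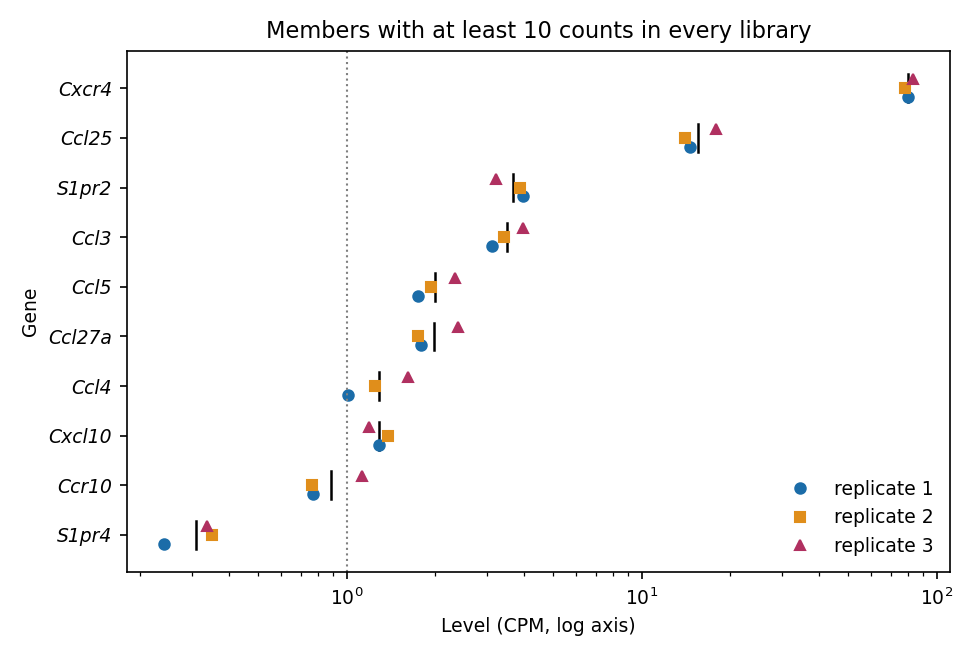
Level in CPM on a log axis of the 10 genes reported with at least 10 counts in every library, with a symbol for each replicate, a bar at the mean and a dotted line at 1 CPM. Cxcr4, at 77.9 to 82.9 CPM, stands above the other 9 genes in every library.

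CC ligands held 5 genes at 1 CPM or more, and Ccl25 had the most counts. Ccl25, a thymic and intestinal chemokine that attracts CCR9-bearing cells, is found on the plus strand of chromosome 8 (4325210 to 4360020). It was at 14.56, 13.98 and 17.89 CPM, with replicate 3 the highest, and took 61.5, 58.7 and 60.0% of all ligand counts. Per kilobase it took 18.1, 16.1 and 16.8% of ligand TPM, less than Ccl3 at 37.6, 38.3 and 36.2%, whereas by the longest transcript it took 33.2% on average and Ccl3 24.2 to 26.0%. Its exons share 204 bases with those of Elavl1 on the opposite strand, an RNA-binding protein gene at 167 ± 2.48 CPM (SD, n = 3). The sources used here do not say whether counting used strand. Reads of Elavl1 counted for Ccl25 cannot be told apart from its own. Per kilobase of all annotated exons Ccl25 was at 6.49 ± 0.606 TPM (SD, n = 3), and at a mean of 13.8 TPM by the length of its longest transcript.

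Ccl3, Ccl4 and Ccl5, inflammatory chemokines of activated leukocytes, were present together. They lie on chromosome 11 within 83525778 to 83664683, Ccl3 and Ccl5 on the minus and Ccl4 on the plus strand, with Ccl9 and Ccl6 between Ccl5 and Ccl3. Ccl3, which is also known as a factor that promotes osteoclasts in myeloma, was at 3.11, 3.41 and 3.96 CPM. Ccl5 was at 1.75, 1.93 and 2.32 CPM. Ccl4 was at 1.01, 1.25 and 1.62 CPM. All 3 were highest in replicate 3 and lowest in replicate 1. Of their neighbours, Ccl9 had 0 counts and Ccl6 had 2, 0 and 1. The other group of CC ligands on this chromosome, at 82035571 to 82305690 and holding Ccl2, Ccl7, Ccl11, Ccl12, Ccl8 and Ccl1, had no gene above 2 counts in any library. Ccl3 exceeded Ccl4 2.36-fold per kilobase, by 1.24 ± 0.17 on the log2 scale (SD, n = 3).

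Ccl27a, a chemokine of skin that binds CCR10, was at 1.78, 1.75 and 2.39 CPM, with replicate 3 above the other libraries. It is found on the minus strand of chromosome 4 (41769467 to 41774247), and its exons share 8 bases with those of Il11ra1, which had 143, 131 and 200 counts. Ccl27b, Ccl19, Ccl21a and Ccl21b on the same chromosome had 0 counts. Ccl27a and Ccl27b, and Ccl21a and Ccl21b, are near-identical copies, so how their counts are split is uncertain. Ccl28, a mucosal ligand of CCR10, had 2, 2 and 5 counts. Among the remaining CC ligands, Ccl2, Ccl6, Ccl8, Ccl12 and Ccl20 had 1 to 3 counts over all libraries, and Ccl1, Ccl7, Ccl9, Ccl11, Ccl17, Ccl22, Ccl24 and Ccl26 had none.

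Of the 13 CXC ligands, Cxcl10 was the 1 gene at 1 CPM or more. Cxcl10, an interferon-induced chemokine that attracts CXCR3-bearing T cells, is found on the minus strand of chromosome 5 (92346638 to 92348889) between Cxcl9 and Cxcl11. It was at 1.284, 1.378 and 1.195 CPM, with replicate 3 the lowest, and at 1.29 ± 0.0916 CPM on average (SD, n = 3). Cxcl9 and Cxcl11, which bind the same receptor, had 0 counts in every library. The limit of 3 counts is 0.0179 CPM for each, and the exact 95% Poisson interval over all libraries reaches 0.0220 CPM. Exons of Cxcl10 share 133 bases with Art3 on the opposite strand, which was at 0.113 CPM. The group of neutrophil chemokines elsewhere on the chromosome, Cxcl1, Cxcl2, Cxcl3, Cxcl5 and Cxcl15, held 5 counts of Cxcl1, all in replicate 3, and 1, 1 and 2 counts of Cxcl2, while Cxcl3, Cxcl5 and Cxcl15 had none. Cxcl13, the follicle chemokine, had 2, 0 and 7 counts, Cxcl14 0, 0 and 2 and Cxcl17 1, 0 and 0. Cxcl12 had 0, 2 and 0 counts. Cx3cl1, of the CX3C class, had 1, 0 and 0, and Cxcl16 and Xcl1 had 0 counts in every library.

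In these bulk libraries, fewer cells with a transcript and less of it per cell cannot be told apart, which bears on the ligands and receptors at about 1 CPM. Levels of different genes were ordered per kilobase for the 10 genes reported with at least 10 counts in every library. Cxcr4 led at 139 TPM, 9.77-fold above Ccl3 at 14.3 ± 1.14 TPM (SD, n = 3). Ccl3 exceeded Ccl5 2.20-fold, by 1.13 ± 0.04 on the log2 scale (SD, n = 3). Ccl5, Ccl25 and Ccl4 followed at 6.502, 6.493 and 6.095 TPM, and neither neighbouring pair of them kept its order in all 3 libraries. Ccl4 exceeded Ccl27a 2.34-fold and Ccl27a exceeded Cxcl10 1.44-fold, each in 3 of 3 libraries. Both values depend on the length taken: by the longest transcript Ccl4 was at 4.44 and Ccl27a at 4.51 TPM, without lengths Ccl4 was at 1.29 and Ccl27a at 1.97 CPM, and the log2 difference of Ccl27a over Cxcl10 went from 0.53 to 1.77 by the longest transcript. Cxcl10, Ccr10 and S1pr2, at 1.79, 1.60 and 1.45 TPM, did not keep their order between libraries. S1pr4, at 0.405 TPM, came last of these, below S1pr2 in 3 of 3 libraries. By the longest transcript Ccl25 stood above Ccl3, at 13.8 against 10.4 TPM, so the place of Ccl25 among the ligands depends on it as well. A sign-flip permutation test over 3 libraries cannot go below 0.25, and none was run.

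Receptors and their ligands were set side by side to see which pairs passed a count limit at both ends. The list held 36 textbook pairs of 19 receptors and 29 ligands. Ccl4 was in no pair, and Ccl3 and Ccl5 were paired with Ccr1 only, so the list is not complete. Both partners had at least 10 counts in every library in 1 pair, Ccr10 with Ccl27a. Per kilobase Ccl27a exceeded Ccr10 by 0.70 ± 0.07 on the log2 scale (SD, n = 3). This 1.62-fold ratio became 3.88-fold by the longest transcript and 2.24-fold without lengths. The receptor alone reached 10 counts in every library in 2 pairs: Cxcr4 with Cxcl12, and Ccr10 with Ccl28. Cxcl12 had 2 counts in all (0.0119 CPM over all libraries, exact 95% Poisson interval 0.00145 to 0.0432). The ligand alone reached 10 counts in every library in 5 pairs: Ccl25 with Ccr9 and with Ackr4, Ccl3 and Ccl5 with Ccr1, and Cxcl10 with Cxcr3. In the other 28 pairs neither partner reached 10 counts in every library.

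**Figure D3:**
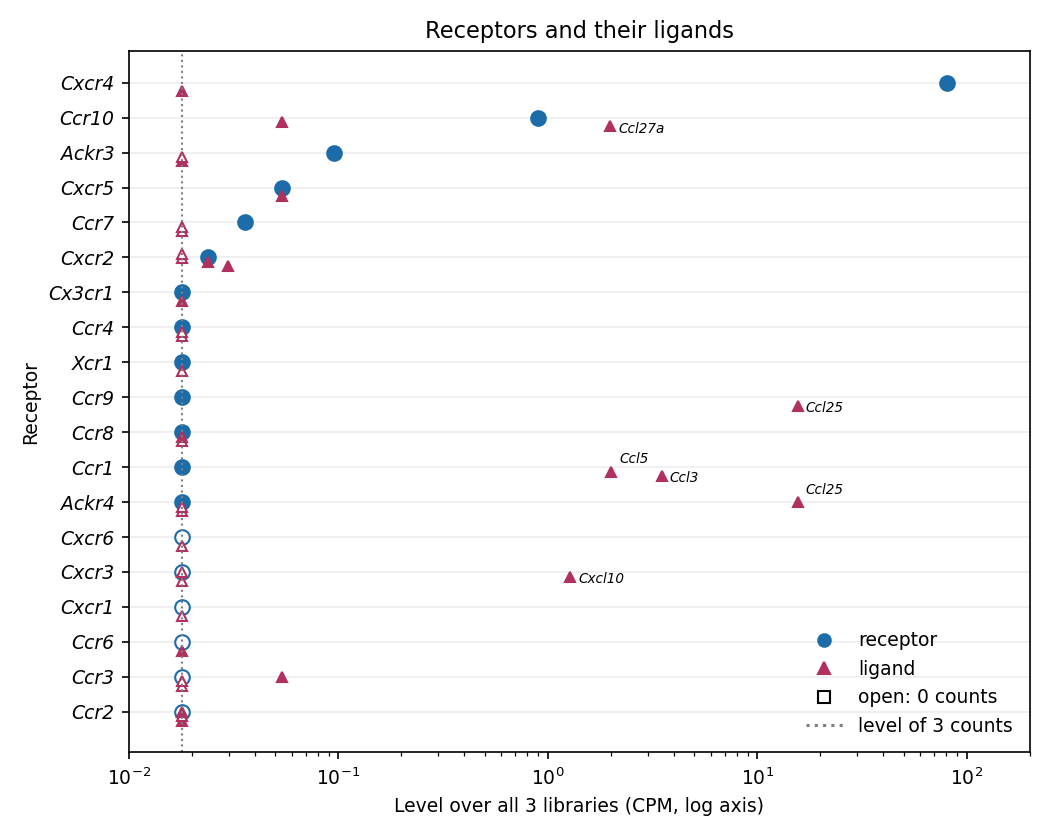
Level over all 3 libraries, in CPM on a log axis, of 19 receptors (circles, 1 row each) and their ligands (triangles). Open symbols have 0 counts, and all levels below that of 3 counts, 0.0179 CPM, are drawn at the dotted line. Cxcr4 lies far right with its ligand at the limit, Ccl25 lies far right of Ccr9 and Ackr4, and Ccr10 and Ccl27a both lie right of the limit.

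Neighbouring genes were also compared by position. Of 5 ligand genes on chromosome 4, Ccl27a alone had at least 10 counts in every library, and of 3 on chromosome 5 from Cxcl9 to Cxcl11, Cxcl10 alone. On chromosome 11, 3 of the 5 genes from Ccl5 to Ccl4 reached it. Of all genes 46.0% did, and of the 65 genes 15.4%. None did among the 7 receptor genes on chromosome 9 from Ccr9 to Ccr2. The same held for the 6 ligand genes on chromosome 11 from Ccl2 to Ccl1 and the 5 on chromosome 5 from Cxcl5 to Cxcl2. Ccl22, Cx3cl1 and Ccl17 on chromosome 8, at 94745590 to 94812036, had 1 count between them.

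Listed genes that carry the receptor signal were set against the same limit, which 40.9% of all genes passed. Of 13 genes of G protein and arrestin signalling, 10 were at 1 CPM or more in all libraries, led per kilobase by Gnb1 at 394 ± 14.1 TPM, Gnai2, the inhibitory G protein of chemokine receptors, at 182 ± 5.57 TPM and Grk6, a kinase that desensitises them, at 180 ± 13.9 TPM (SD, n = 3 for each). Of the arrestins, Arrb2 was at 78.7 ± 2.86 TPM (SD, n = 3), while Arrb1 had 0 counts in every library. Of 9 RGS genes, which shorten G protein signals, 4 passed: Rgs19 at 97.0 ± 1.13 TPM, Rgs14 at 7.30 ± 0.255 TPM, Rgs10 at 7.08 ± 0.373 TPM (SD, n = 3 for each) and Rgs3 at a mean of 2.003 TPM. Rgs2, Rgs13 and Rgs16 had 0 counts, and Rgs1, a regulator of B cell responses to CXCL12, had 2, 1 and 2.

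Of 20 migration effectors, 17 passed 1 CPM, led by the small GTPase genes Cdc42 at 725 ± 20.4 TPM, Rap1b at 270 ± 12.7 TPM and Rap1a at 268 ± 3.75 TPM (SD, n = 3 for each). Dock2, the activator of Rac in lymphocyte migration, was at 47.3 ± 10.2 TPM (SD, n = 3), and its partner Elmo1 was below the limit at 0.746 CPM. Of 15 genes of sphingosine 1-phosphate turnover, export and response, 8 passed, led by Sgpl1, the lyase that destroys the lipid, at 53.1 ± 7.67 TPM, Arhgef1, which acts downstream of S1PR2, at 47.2 ± 1.75 TPM and Foxo1 at 38.8 ± 5.07 TPM (SD, n = 3 for each). Sphk2, a kinase that makes the lipid, was at 26.0 CPM, whereas Sphk1 had 0 counts. Klf2, which activates the S1pr1 gene, and the phosphatase gene Plpp3 also had 0 counts, and Cd69, whose product removes S1PR1 from the surface, had 25, 11 and 16. Of a mixed list of 12 other genes outside the name rule, 5 passed: Mif, a cytokine that can bind CXCR4, at 1683 ± 127 TPM, its receptor chain Cd74 at 1126 ± 34.3 TPM, Ebi3 at 233 ± 6.74 TPM (SD, n = 3 for each), Hif1a at a mean of 68.4 TPM and Tnfrsf13b at 57.1 TPM. Ebi3, a cytokine subunit, Hif1a, a factor of the hypoxia response, and Tnfrsf13b, a receptor of B lineage cells, are not chemokine genes. The shares of RGS genes and of this list at 1 CPM were near that of all genes. Pf4 and Ppbp had 0 counts, Ccrl2 was at 0.685 CPM and Gpr183, an oxysterol receptor that positions B cells, at 0.676 CPM.

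The libraries of the group were also compared with each other, and replicate 3, a single library, differed in about as large a share of these genes as of all genes. By edgeR's quasi-likelihood test of replicate 3 against the other 2 libraries, with Benjamini-Hochberg adjustment over 11308 genes, 6 of the 10 genes tested and reported were higher and 0 lower, 7 having an unadjusted p under 0.05. Of all genes tested, 51.6% were called, 24.8% as higher and 26.8% as lower. The median log2 difference was 0.34 over the 10 genes and 0.01 over all genes. Replicate 3 differs from replicate 2 in no labelled condition. Ccl25 was 1.28-fold higher (log2 0.36, SE 0.075, adjusted p = 1.02e-05) and Ccl27a 1.38-fold (log2 0.47, SE 0.171, adjusted p = 0.0144). Ccl4 was 1.48-fold higher (log2 0.57, SE 0.205, adjusted p = 0.0135), Ccr10 1.5-fold (log2 0.58, SE 0.244, adjusted p = 0.0347) and Ccl3 1.24-fold (log2 0.32, SE 0.136, adjusted p = 0.041). Cxcr4 was 1.07-fold higher (log2 0.10, SE 0.041, adjusted p = 0.0278). Ccl5, at log2 0.38 (adjusted p = 0.0525), S1pr2, at -0.26 (0.102), S1pr4 and Cxcl10 did not pass. With library totals as the scaling, Ccl3, Ccr10 and Cxcr4 did not pass (adjusted p = 0.0762, 0.0533 and 0.151). The test rests on the spread between replicates 1 and 2, with 1 residual degree of freedom per gene. That spread, which may be technical, was moderated over all genes tested, so the small p-values rest on values shared between genes.

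Log2 differences of replicate 3 fell with exon length, with a Spearman correlation of -0.59 across 11238 genes, which share their libraries and are not independent replicates. Length was the union of all annotated exons, for Ccl25 7445 bases against 2549 in its longest transcript. No other length was used for the trend, so the corrected value of Ccl25 depends on this choice. With that trend put into the fit as an offset, a step chosen after seeing the data, 34.1% of all genes were called, and of the 10 genes 1, Ccl25, at a log2 difference of 0.50 (SE 0.075, adjusted p = 6.38e-10). The log2 difference of Ccl3 was then 0.03 (adjusted p = 0.87), that of Ccl4 0.28 (0.314) and that of Ccr10 0.39 (0.222), and Cxcr4 turned to -0.09 (0.0893). DESeq2 gave an adjusted p to 2 of the 10 genes, 0.051 for Ccl25 and 0.336 for Cxcr4, and called neither, against 33.5% of all genes to which it gave an adjusted p. Elavl1, whose exons overlap those of Ccl25, had a log2 difference of -0.00 (SE 0.04, adjusted p = 0.942), while Il11ra1, the neighbour of Ccl27a, was higher at 0.43 (SE 0.149, adjusted p = 0.00907). By edgeR, 0 of the 10 genes passed in replicate 1 or in replicate 2 against the other libraries, none had an unadjusted p under 0.05, and DESeq2 called 0. Among all genes, 0.0796 and 0.0531% were called there. These tests take replicate 3 into the reference spread.

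**Figure D4:**
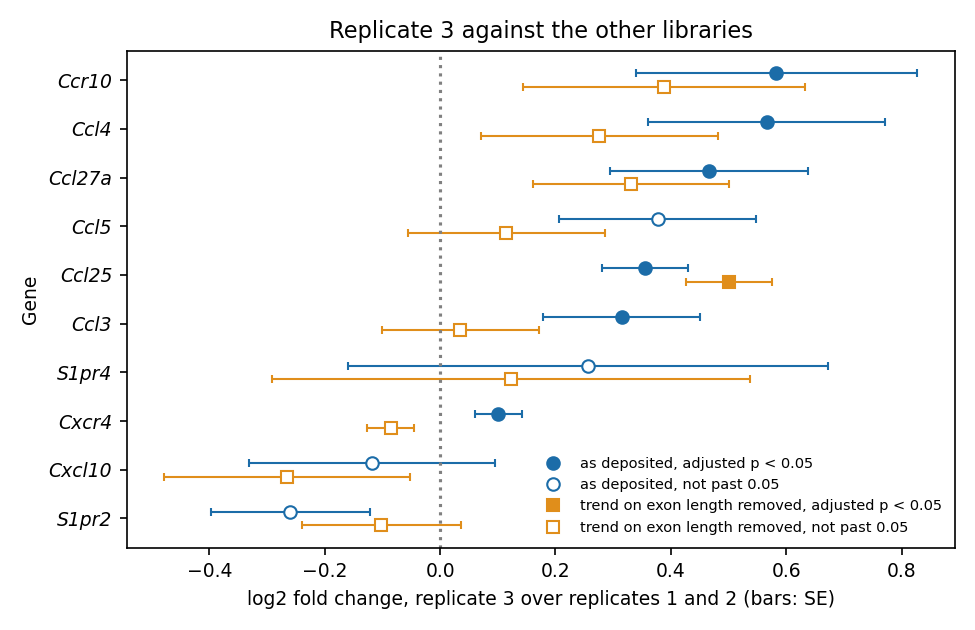
Log2 fold change of replicate 3 over the other libraries for 10 genes, with bars for the SE, filled where the adjusted p was under 0.05. Circles, marked as deposited in the figure, are the edgeR fit with TMM scaling and no length correction. Squares have the trend on exon length, taken as the union of exons, removed. Cxcr4 moves from 0.10 without length correction to -0.09 with the trend removed.

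Over all lists, pathway genes were called in replicate 3 in both directions. The shares differed between lists and lay on either side of that of all genes given above. With the trend on exon length in the fit fewer were called in all, and the share among all genes fell too. Of the G protein and arrestin genes tested there, 3 of 10 were higher (Gng5, Gnb2 and Arrb2) and 1 lower (Gnai3), with a median log2 difference of 0.06. These 4 were also called with the trend in the fit. Of 4 RGS genes tested, 1, Rgs19, was higher, and 0 were called with the trend in the fit. Of 20 migration effectors, 4 were higher and 9 lower with a median of -0.12, among them Dock2 at -0.44 and Pik3cg at -0.36 (edgeR adjusted p = 6.17e-25 and 2.34e-16). With the trend in the fit 3 were higher and 4 lower, Dock2 at -0.21 and Pik3cg at -0.19 (edgeR adjusted p = 1.71e-06 and 4.18e-05). Of 9 genes of sphingosine 1-phosphate turnover and response, 1 was higher and 4 lower with a median of -0.18, among them Gna12, whose protein couples to S1PR2, at -0.62 (edgeR adjusted p = 1.35e-10). With the trend in the fit 2 were higher and 3 lower, with Gna12 at -0.66 (edgeR adjusted p = 1.86e-11). Of 7 genes of the mixed list, 3 were higher and 2 lower, with Mif at 0.30 (edgeR adjusted p = 7.06e-12). With the trend in the fit 0 were higher and 2 lower, with Mif at 0.02 (edgeR adjusted p = 0.745). Each of these calls comes from 1 library against 2.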

How the data were processed

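Per the labels, 3 libraries of polyadenylated RNA of 5TGM1.BRE cells were sequenced, and the authors deposited raw counts per gene symbol, 1 table per library. Per the submitters' processing notes, bcl2fastq, cutadapt 4.2 and STAR were used with mm10. The sources used here do not name the counting program, its annotation or its strand setting. Counts of overlapping genes and of near-identical copies are therefore uncertain.

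The 3 samples were grouped by title. Lengths (union of exons) and positions came from GENCODE M21 (GRCm38), matched by symbol for 23688 genes, by another symbol for 471 and not at all for 308. All 65 genes reported matched. Of the genes of the rule 1, and of the marker genes 1, are not reported here. CPM and TPM were computed from the counts with Python 3.11.15, pandas 2.3.3 and SciPy 1.17.1. Each library was set against the other 2 with edgeR 4.0.16 (R 4.3.3, TMM, filterByExpr, quasi-likelihood F test, Benjamini-Hochberg at 0.05), which kept 11308 genes, 10 of them among the 65. The edgeR step was tested on simulated counts, which held neither a trend on exon length nor a spread like that of replicate 3. The SE given with edgeR is the size of the log2 difference divided by the square root of F, not a standard error from the fit itself. DESeq2 1.42.0, other scalings, limits, lengths, thinning to equal depth and leaving out replicates were alternatives. Depth was 45705994 to 62303493 counts.

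The members, lists, ligand pairs and motifs were chosen with earlier results of these data known. The naming rule covers every member with 10 or more counts in a library with its values and every member at 0 counts by name, and for each pathway list the 3 highest per kilobase and those at 0. Further pathway genes were picked with their values in view.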

Additional observations from a re-analysis of the deposited data

How the results depend on the processing

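Of the 65 genes, 8 were at 1 CPM or more in all libraries. The number was 10 at 0.1 CPM, 9 at 0.5 CPM, 4 at 2 CPM, and 8 with TMM library sizes, at equal depth or without any 1 replicate. It was 5 without the genes whose exons overlap another gene (Ccl25, Ccl27a and Cxcl10 left out) and 10 by at least 10 counts in every library. Both of these limits were chosen after seeing the data. The 28 genes with 0 counts became 32 to 34 without 1 replicate. Of 9 neighbouring pairs in the order per kilobase, 7 to 8 held without 1 replicate, 6 by the longest transcript and 6 without lengths. The summed level of 111.1 CPM ranged from 107.9 to 113.2 CPM without 1 replicate.

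The 6 genes called in replicate 3 were 6 with RLE scaling or no filter, 5 with the length trend subtracted (which keeps the p-values of the first fit, so that only a change of sign can end a call), 3 with library totals, 1 with the length trend in the fit (chosen after seeing the data) and 0 with DESeq2, which gave 8 of the 10 no adjusted p. Cxcr4 reversed to -0.09 under both length corrections, and the cause was not tested. No call was made in replicates 1 or 2 under any of these settings. Leaving out a replicate leaves these tests without residual degrees of freedom, so it was not run there. No paired analysis was possible because all samples form 1 group. Depth limits the genes with at most 9 counts in any library, which the filter on low counts left out of the edgeR test. Without the filter none of those was called in replicate 3, with Cxcl1 at the lowest p among them (edgeR adjusted p = 0.0772, all 5 counts in replicate 3).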
